A study of Homo sapiens with 12 samples.

Results

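The 48 genes described here encode nucleolar factors that build ribosomes. They were taken by symbol from the deposited count table, and all 48 were found among its 60483 genes and passed the filter on low counts, which left 14412 genes to test. By their main role, 6 act in rRNA transcription, 8 in small nucleolar ribonucleoproteins (snoRNPs), 16 in assembly of the small (40S) subunit and 12 in assembly of the large (60S) subunit, and 6 are multifunctional nucleolar proteins. The study exposed cells of REC1, a human line established from a mantle cell lymphoma, to DMSO, to ibrutinib (an inhibitor of Bruton's tyrosine kinase, BTK), to SPX5551 (written pol5551 in the column headers, and presented by the study as an inhibitor of the chemokine receptor CXCR4), or to ibrutinib and SPX5551 together, called the combination below. Poly(A) RNA was sequenced at 4, 8 and 12 h, with 1 library for each treatment and time, 12 in all, and no drug dose is given in the sources used here. All libraries come from the same line, and the labels name no genetic change.

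Ribosomes are made in the nucleolus. RNA polymerase I copies the rDNA into a long precursor rRNA, snoRNPs guide the chemical marking of that precursor, and a large set of assembly factors fold, cut and load it with ribosomal proteins to give the small and large subunits. Many of these genes are known targets of MYC, and dividing cells depend on what they make. The rRNA and most snoRNAs carry no poly(A) tail, so what was measured is the mRNA of the factors and not ribosome output.

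Total counts per library ranged from 19336303 to 28934030, and the least counted member, PPAN, had at least 119 counts in each library. Levels are given as CPM, counts scaled to a common library size by TMM (trimmed mean of M-values), and differences as log2 fold changes from edgeR's quasi-likelihood test with treatment and time as terms. A gene was called where its Benjamini-Hochberg adjusted p over all 14412 genes was under 0.05. The 3 times stand in as the replicates of a treatment. The p-values set a difference against the spread left over all 12 libraries after the treatment and time terms. Nothing in the labels says that libraries came from separate cultures, so this spread may be technical. CCND1, cyclin D1, the gene that marks this lymphoma, and the B-cell marker MS4A1 were abundant, with CCND1 at 1274 to 1760 CPM and MS4A1 at 717 to 891 CPM. SOX11, another mantle cell lymphoma marker, was at 4.41 to 7.20 CPM. Of 6 myeloid genes listed, 5 were under 1 CPM in every library, and S100A8 and S100A9 had no counts. Of 6 T-cell genes 3 were under 1 CPM, and CD3E was at 2.63 to 6.68 CPM. Of 8 stromal, endothelial and epithelial genes 1 was under 1 CPM. PDGFRB reached 49.1 CPM, PECAM1 40.9 CPM and KRT18 38.7 CPM. CD5, usually present in mantle cell lymphoma, was under 1 CPM in all 12 libraries.

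Libraries were assigned by the treatment in the column headers, which match the sample titles (ibrutinib is shortened to ibr there). A free-text field of the labels ties each sample to the column of another treatment, and under that reading the differences from DMSO turn. The combination then has 0 members lower and 25 higher than DMSO, ibrutinib alone 0 lower and 40 higher, and SPX5551 alone 0 lower and 26 higher. The estimates against ibrutinib (median -0.13, 41 of 48 below 0) and of the interaction (median -0.45, 45 of 48 below 0) stay mostly negative, and the count from 4 to 12 h stays at 37. Transcripts that follow B-cell receptor signalling, the pathway that BTK serves, bear on which reading holds. CCL4 was at 0.412 to 1.52 CPM in the 6 columns headed ibrutinib or combination and at 2.30 to 9.35 CPM in the 6 headed DMSO or SPX5551, and CD69 was at 4.78 to 9.11 against 13.7 to 26.1 CPM. Both genes were chosen after their values were seen. The labels also state genomic DNA as the molecule, which their own RNA protocol contradicts.

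Promoter sequence was available in RefSeq's table (GRCh38.p14) for 41 of the 48 genes, and it was searched for CACGTG, the canonical E-box that MYC and MAX bind and that reads the same on both strands. In the window from 250 bases before to 50 bases after the start, 18 of the 41 genes (43.9%) held it at a listed start, against 8.77% of all 27305 genes of the table. Counted by start, it was in 18 of 50 member windows (36%) and in 7.26% of all 35116 windows. It was present for 8 of 15 matched 40S factors and 3 of 6 matched snoRNP genes but 1 of 6 rRNA transcription genes. Of the other ribosome biogenesis genes listed for comparison, 30 of 95 (31.6%) held it. The shares over all genes include genes not tested here, while the members' median level lay at the 90.4th percentile of the genes tested. A match is a run of letters and not a shown binding site. The sites below are shown because they are the 6 that lie wholly before the start, plus those of WDR43 and MYBBP1A, which are among the members given by library in the results that follow. DDX21 met the printing rule, and the other 7 were added after the matches were seen. Of the other members given by library, POLR1B, DKC1, TSR1, NOP16, NIP7, NCL, RRN3, NHP2 and NPM1 held no CACGTG in the window. NOLC1, BOP1 and RRP12 had no promoter in the table. FBL, not called lower with the combination, held the motif. Whether it bears on a member's change was not tested. CACGTG is in capitals, and each stretch is 5′ to 3′ on the gene's strand.
DDX21 (chr10:68956604-68956633, plus strand): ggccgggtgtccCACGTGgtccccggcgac
LYAR (chr4:4290068-4290097, minus strand): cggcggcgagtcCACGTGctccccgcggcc
UTP4 (chr16:69132621-69132650, plus strand): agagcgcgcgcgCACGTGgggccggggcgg
NAT10 (chr11:34105602-34105631, plus strand): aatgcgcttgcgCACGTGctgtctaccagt
UTP14A (chrX:129905914-129905940, plus strand): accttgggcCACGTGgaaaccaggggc
UTP20 (chr12:101280083-101280112, plus strand): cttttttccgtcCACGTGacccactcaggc
WDR43 (chr2:28894658-28894687, plus strand): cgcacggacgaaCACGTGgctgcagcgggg
MYBBP1A (chr17:4555340-4555369, minus strand): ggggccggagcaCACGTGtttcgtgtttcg
The E-box begins 31 bases before the start in DDX21, 64 in LYAR, 16 in UTP4, 15 in NAT10, 241 in UTP14A and 10 in UTP20. It begins at base 4 of the transcript in WDR43 and at base 28 in MYBBP1A. Apart from those of UTP14A and UTP20, these stretches overlap an exon of the same gene in GENCODE 29, in which some transcripts start further upstream. UTP20 begins there at base 101280109, so only the last bases of its stretch, after CACGTG, lie in the exon. In the 250 bases before the start alone, 6 of the 41 genes (14.6%) held the motif, against 7.73% of all genes.

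The module as a whole was lowest under the combination at every time. Its mean log2 CPM over the 48 genes was 7.73, 7.46 and 7.38 in DMSO at 4, 8 and 12 h, 7.68, 7.33 and 7.23 with ibrutinib, 7.55, 7.32 and 7.31 with SPX5551, and 7.37, 6.95 and 6.83 with the combination. The combination library was below the other 3 treatments of its time at 4, 8 and 12 h, but its 4 h value lay among the 8 and 12 h values of the other treatments, so the groups overlap when times are mixed. The difference between combination and DMSO was -0.37, -0.51 and -0.55 at the 3 times, a mean of -0.48 ± 0.095 (SD, n = 3 times). The corresponding mean was -0.11 ± 0.050 for ibrutinib and -0.13 ± 0.056 for SPX5551. Taken as the median over members in each library, the mean differences were -0.51 for the combination, -0.12 for ibrutinib and -0.25 for SPX5551. The 48 genes held 1.65% of all counts in the 4 h DMSO library and 0.942% in the 12 h combination library. A lower CPM is a lower share of the poly(A) counts, and fewer cells of a type and less RNA per cell cannot be told apart in such libraries.

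**Figure D1:**
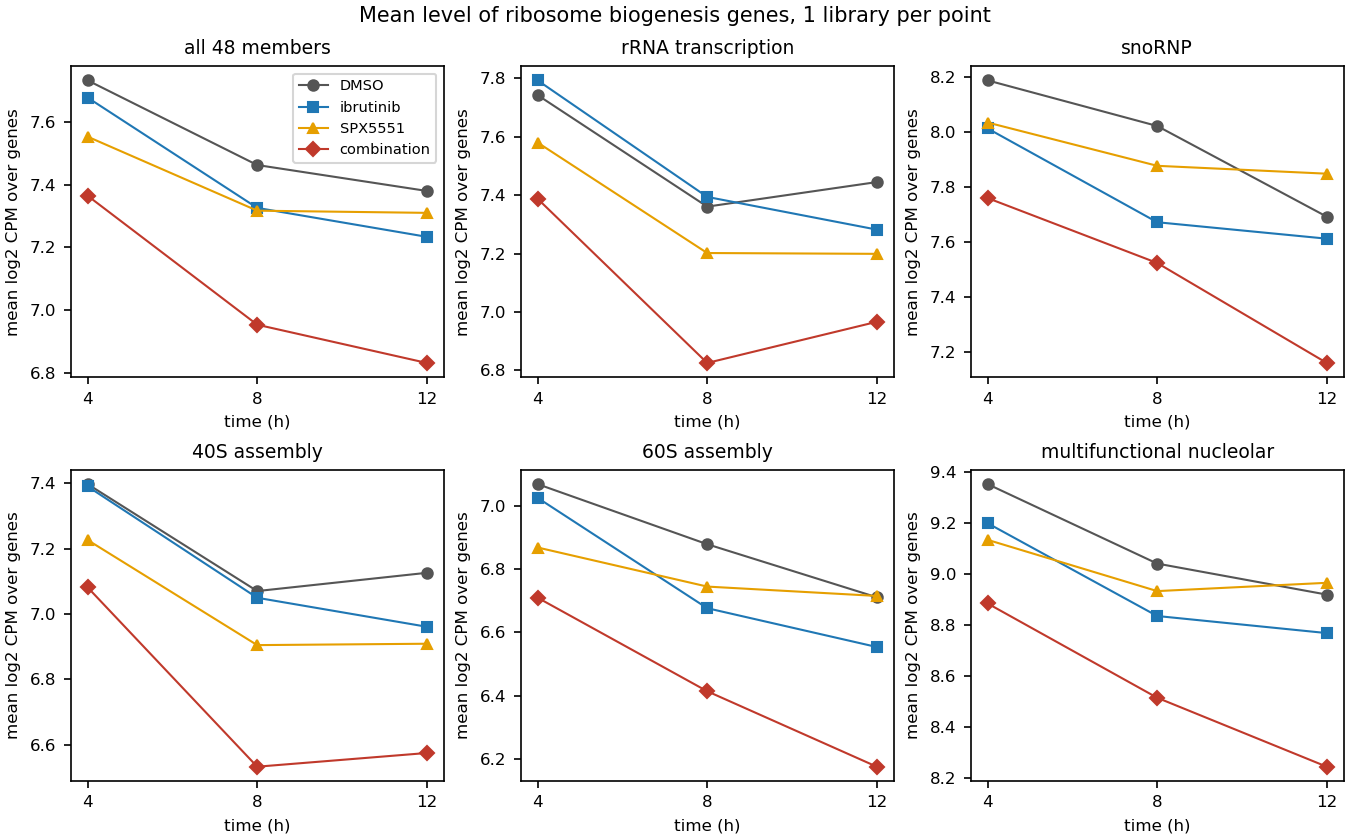
Mean log2 CPM of the 48 genes and of the 5 role groups (vertical axis) at 4, 8 and 12 h (horizontal axis), with 1 point per library and 1 colour per treatment. The combination (red diamonds) is the lowest point at each time in all panels, and the all-member means fall from 7.73 to 7.38 in DMSO and from 7.37 to 6.83 under the combination.

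With the combination, 40 of the 48 genes were lower than in DMSO and 0 were higher, with a median log2 fold change of -0.50 and a range from -0.78 to -0.0049. Across all genes tested, 5.41% were called lower (779 genes) and 600 were called higher, with a median of 0.015. All 16 of the 40S factors, all 6 multifunctional proteins, 9 of 12 of the 60S factors, 6 of 8 snoRNP genes and 3 of 6 rRNA transcription genes were called lower. In 46 of 48 genes the combination library was below the DMSO library at all 3 times, the exceptions being BOP1 and GRWD1 at 4 h. For 16 genes all 3 combination libraries lay below all 3 DMSO libraries, which held for 5.16% of all genes tested.
The count of 40 was 21 without the 4 h libraries and 25 without the 8 h libraries, where 1.28% and 1.74% of all genes were called lower. Without the time term it was 0, with the median at -0.49, and 0.153% of all genes were called lower. When libraries were scaled by total count alone, 35 members were lower and 0 higher, while over all genes the calls moved from 779 lower and 600 higher to 493 lower and 1140 higher.

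**Figure D2:**
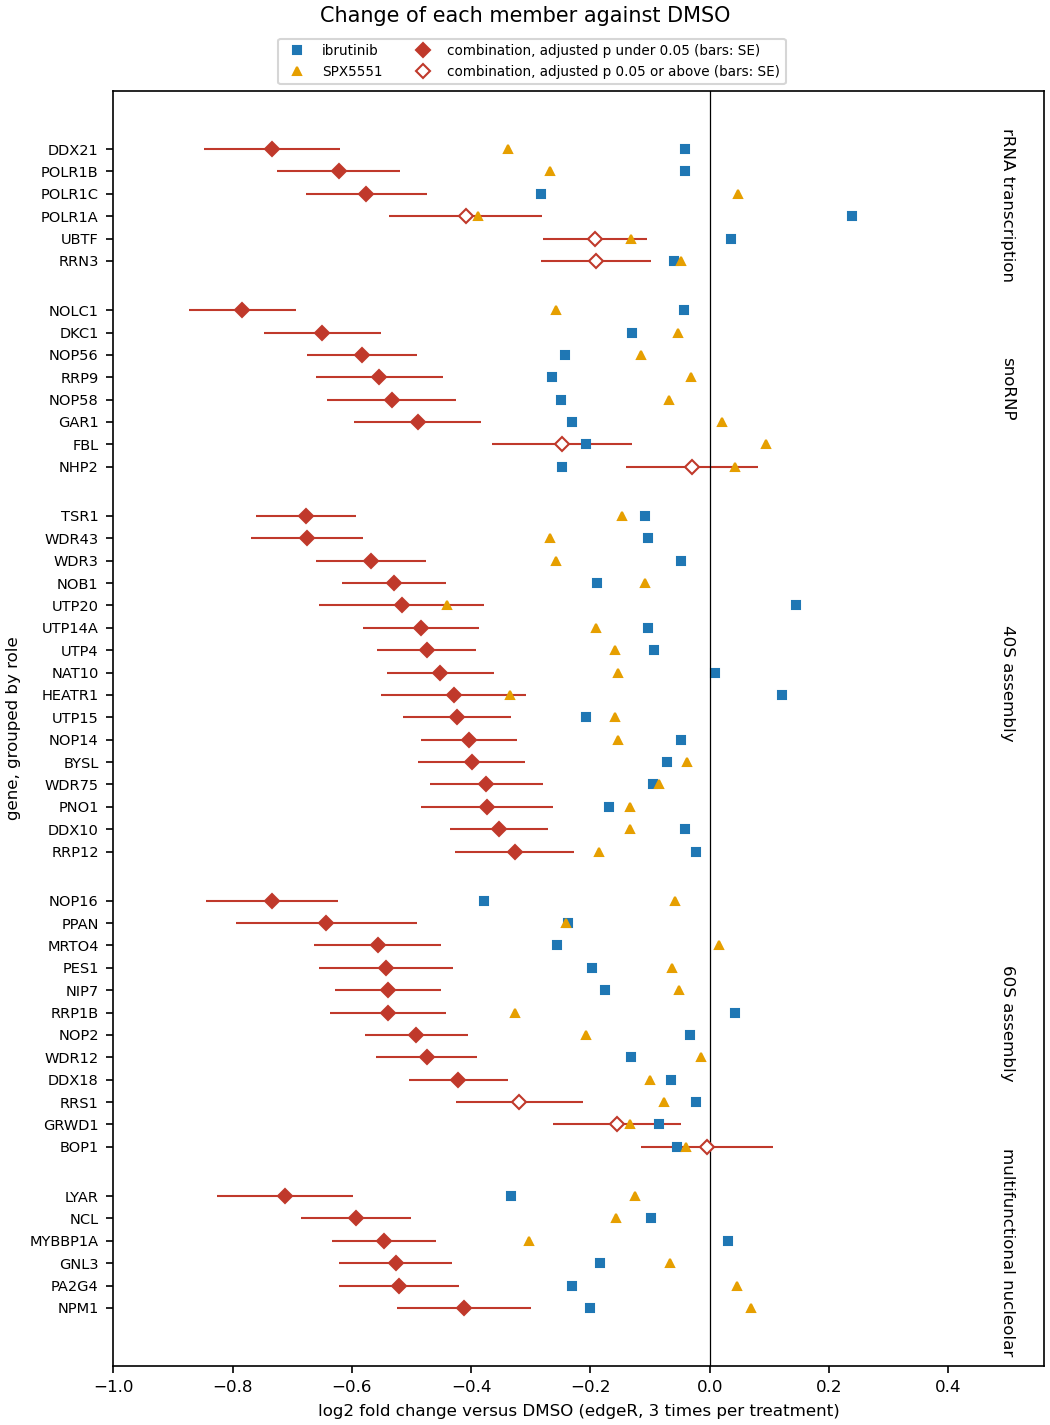
Log2 fold change against DMSO (horizontal axis) for each of the 48 genes, grouped by role, for the combination (diamonds, bars are the SE, filled where the adjusted p was under 0.05), ibrutinib (squares) and SPX5551 (triangles). All 48 diamonds lie below 0, from -0.78 for NOLC1 to -0.0049 for BOP1, and 40 are filled.

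Among the genes of rRNA transcription, DDX21, POLR1B and POLR1C fell under the combination. DDX21 (chr10:68956128-68985073, plus strand, hg38) is an RNA helicase that couples polymerase I transcription to rRNA processing. Its E-box, not found at every listed start, is printed above. In DMSO DDX21 gave 1356, 779 and 944 CPM at 4, 8 and 12 h. The ibrutinib libraries gave 1328, 836 and 825 CPM, those of SPX5551 1054, 703 and 662 CPM and those of the combination 963, 406 and 544 CPM. The combination library was the lowest of the 4 treatments at each time, although its 4 h level exceeded the later DMSO levels. The log2 fold change against DMSO was -0.73 (SE 0.114, adjusted p = 0.00124). POLR1B (chr2:112541915-112577150, plus strand, hg38) encodes the second largest polymerase I subunit. POLR1B measured 148, 99.6 and 128 CPM at 4, 8 and 12 h of DMSO. Ibrutinib left POLR1B at 149, 106 and 108 CPM, SPX5551 at 121, 90.2 and 98.4 CPM and the combination at 95.8, 58.5 and 91.0 CPM. All 3 combination libraries were below all 3 DMSO libraries, and the log2 fold change was -0.62 (SE 0.104, adjusted p = 0.00198). Without the 4 h libraries its adjusted p was 0.0612. POLR1C, a subunit shared by polymerases I and III, had a log2 fold change of -0.58 (SE 0.101, adjusted p = 0.0029). The other 3 genes did not pass. POLR1A, the largest polymerase I subunit, was at -0.41 (SE 0.128, adjusted p = 0.0564), with all 3 combination libraries below all 3 DMSO libraries. UBTF, which binds and opens the rDNA, was at -0.19 (SE 0.0879, adjusted p = 0.188). RRN3 (also TIF-IA), which carries polymerase I to the promoter, had the largest p of its group. At the 3 times in turn, DMSO libraries held RRN3 at 64.9, 47.6 and 47.9 CPM. Its levels were 67.5, 43.6 and 44.3 CPM for ibrutinib, 61.2, 44.4 and 49.0 CPM for SPX5551 and 64.7, 37.1 and 41.1 CPM for the combination. At 4 h the combination and DMSO libraries were almost equal, and the log2 difference over the 3 times was -0.19 (SE 0.0924, adjusted p = 0.219).

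The snoRNP genes include NOLC1, the gene with the largest change of all 48. NOLC1 (chr10:102152176-102163871, plus strand, hg38), also called Nopp140, is a chaperone that brings snoRNPs to the nucleolus. In DMSO NOLC1 gave 771, 568 and 649 CPM at 4, 8 and 12 h. The ibrutinib libraries gave 740.2, 617 and 568 CPM, those of SPX5551 660.3, 489 and 518 CPM and those of the combination 491, 332 and 341 CPM. Its 3 combination libraries were all below the other 9 libraries except that the 4 h combination library was just above the 8 h SPX5551 library. The log2 fold change against DMSO was -0.78 (SE 0.0894, adjusted p = 0.000111), which leaves 58.1% of the DMSO level. DKC1 (chrX:154762742-154777689, plus strand, hg38), the pseudouridine synthase of box H/ACA particles, was the next by p. DKC1 measured 879.7, 653 and 615 CPM at 4, 8 and 12 h of DMSO. Ibrutinib left DKC1 at 827, 571 and 569.7 CPM, SPX5551 at 781, 653 and 616 CPM and the combination at 639.6, 402 and 351 CPM. The combination was lowest at each time, and the log2 fold change was -0.65 (SE 0.0981, adjusted p = 0.00105). GAR1, a partner of DKC1, was at -0.49 (SE 0.107, adjusted p = 0.0106). Of the box C/D core proteins, which carry out 2′-O-methylation of rRNA, NOP56 was at -0.58 (SE 0.0921, adjusted p = 0.00138) and NOP58 at -0.53 (SE 0.108, adjusted p = 0.00665). The methyltransferase itself, FBL, did not pass at -0.25 (SE 0.117, adjusted p = 0.204). RRP9, the protein particular to the U3 particle that acts in small-subunit processing, was at -0.55 (SE 0.107, adjusted p = 0.00505). NHP2, another H/ACA core protein, had the largest p. At the 3 times in turn, DMSO libraries held NHP2 at 76.2, 88.8 and 62.2 CPM. Its levels were 64.3, 62.0 and 63.4 CPM for ibrutinib, 72.1, 81.0 and 78.8 CPM for SPX5551 and 75.9, 86.3 and 60.3 CPM for the combination. Its combination and DMSO libraries differed by less than 3 CPM at each time, and the log2 difference was -0.030 (SE 0.111, adjusted p = 0.907).

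All 16 factors of small-subunit assembly fell. TSR1 (chr17:2322503-2337507, minus strand, hg38) is a GTPase-like factor of late cytoplasmic maturation. In DMSO TSR1 gave 273, 207 and 208 CPM at 4, 8 and 12 h. The ibrutinib libraries gave 255, 204 and 180.5 CPM, those of SPX5551 239, 188 and 193 CPM and those of the combination 182, 129.7 and 122 CPM. All 3 combination libraries were below the 9 libraries of the other treatments except that the 4 h one was just above the 12 h ibrutinib library. The log2 fold change against DMSO was -0.68 (SE 0.0833, adjusted p = 0.000209). WDR43 (chr2:28894643-28948222, plus strand, hg38) belongs to the complex that binds the 5′ end of the nascent precursor, and its E-box is among those printed. WDR43 measured 423, 264 and 291 CPM at 4, 8 and 12 h of DMSO. Ibrutinib left WDR43 at 395, 252 and 263 CPM, SPX5551 at 316, 247 and 236 CPM and the combination at 279, 153 and 186 CPM. The 8 h and 12 h combination libraries were below all other libraries, and the log2 fold change was -0.68 (SE 0.0940, adjusted p = 0.000595). The next sizes were those of WDR3, a U3-processome protein, at -0.57 (SE 0.0927, adjusted p = 0.00173), and NOB1, the endonuclease that makes the last cut of small-subunit rRNA, at -0.53 (SE 0.0873, adjusted p = 0.00188). UTP20, UTP14A, UTP4 and UTP15, all of the small-subunit processome, ranged from -0.52 to -0.42. NAT10, an RNA acetyltransferase, was at -0.45 (SE 0.0892, adjusted p = 0.00591), and the scaffold protein HEATR1 at -0.43 (SE 0.122, adjusted p = 0.0372). NOP14, BYSL, WDR75, PNO1 and DDX10 lay between -0.40 and -0.35. RRP12, which acts in nuclear export of the subunit, had the largest p. At the 3 times in turn, DMSO libraries held RRP12 at 126, 139 and 145 CPM. Its levels were 148, 139 and 120.2 CPM for ibrutinib, 128, 118 and 118 CPM for SPX5551 and 122, 111 and 96.4 CPM for the combination. Its combination libraries were all below its DMSO libraries, by a log2 fold change of -0.33 (SE 0.0992, adjusted p = 0.0488), and this call was lost in 10 of the 15 fits that left out a library or a time.

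Among the 60S factors, NOP16 (chr5:176383938-176388975, minus strand, hg38) had the smallest p. In DMSO NOP16 gave 220, 169 and 123 CPM at 4, 8 and 12 h. The ibrutinib libraries gave 174, 111 and 107 CPM, those of SPX5551 181, 150.1 and 148 CPM and those of the combination 136, 98.6 and 74.0 CPM. The combination library was lowest at each time, and its ibrutinib libraries were also below those of DMSO at each time. The log2 fold change of the combination was -0.73 (SE 0.110, adjusted p = 0.00102). NIP7 (chr16:69337996-69343111, plus strand, hg38), a late pre-60S factor, followed. NIP7 measured 238, 170.5 and 158 CPM at 4, 8 and 12 h of DMSO. Ibrutinib left NIP7 at 208, 145 and 146 CPM, SPX5551 at 205, 167 and 166 CPM and the combination at 172, 116 and 104 CPM. Its combination libraries were lowest at each time, with a log2 fold change of -0.54 (SE 0.0892, adjusted p = 0.0019). The proteins PES1, BOP1 and WDR12 form the PeBoW complex of large-subunit processing, and their changes are given side by side. PES1 was at -0.54 (SE 0.112, adjusted p = 0.00752), WDR12 at -0.47 (SE 0.0843, adjusted p = 0.0031) and BOP1 at -0.0049 (SE 0.111, adjusted p = 0.986). At the 3 times in turn, DMSO libraries held BOP1 at 113, 154 and 114 CPM. Its levels were 128, 127 and 108 CPM for ibrutinib, 102, 142 and 124 CPM for SPX5551 and 130.2, 146 and 102 CPM for the combination. At 4 h BOP1 was higher in the combination than in DMSO, and at 8 and 12 h lower. PPAN had a log2 fold change of -0.64 (SE 0.152, adjusted p = 0.0158), MRTO4, which prepares the stalk of the subunit, -0.56 (SE 0.107, adjusted p = 0.00503), and the rRNA methyltransferase NOP2 -0.49 (SE 0.0867, adjusted p = 0.00295). RRP1B and DDX18 were at -0.54 and -0.42 and also passed. RRS1, a factor of early large-subunit assembly, and GRWD1, a ribosomal protein chaperone, did not pass, at -0.32 (SE 0.107, adjusted p = 0.0716) and -0.16 (SE 0.107, adjusted p = 0.407).

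The multifunctional proteins hold the most abundant mRNAs of the module. Per kilobase of the longest transcript, the mean level was 1153 CPM for NPM1 and 449 CPM for NCL, and 4.86 CPM for PPAN, the lowest. NCL (chr2:231453531-231483641, minus strand, hg38), nucleolin, had the smallest p of the group. In DMSO NCL gave 2640, 1816 and 1796 CPM at 4, 8 and 12 h. The ibrutinib libraries gave 2329, 1817 and 1658 CPM, those of SPX5551 2129, 1714 and 1698 CPM and those of the combination 1753, 1309 and 1090 CPM. All 3 combination libraries were below all 3 DMSO libraries, by a log2 fold change of -0.59 (SE 0.0918, adjusted p = 0.00123). MYBBP1A (chr17:4538897-4555631, minus strand, hg38), a nucleolar co-regulator of transcription, followed. MYBBP1A measured 164, 148 and 158 CPM at 4, 8 and 12 h of DMSO. Ibrutinib left MYBBP1A at 183, 157 and 141 CPM, SPX5551 at 135, 119 and 127 CPM and the combination at 120.1, 97.2 and 105 CPM. Its combination libraries did not overlap those of DMSO or ibrutinib, and the log2 fold change against DMSO was -0.55 (SE 0.0868, adjusted p = 0.00147). LYAR was at -0.71 (SE 0.114, adjusted p = 0.00157), GNL3 (nucleostemin) at -0.53 (SE 0.0947, adjusted p = 0.00333) and PA2G4 at -0.52 (SE 0.101, adjusted p = 0.00521). NPM1, nucleophosmin, had the largest p and still passed. At the 3 times in turn, DMSO libraries held NPM1 at 2625, 2127 and 1902 CPM. Its levels were 2160, 1790 and 1809 CPM for ibrutinib, 2337, 2255 and 2304 CPM for SPX5551 and 2016, 1743 and 1263 CPM for the combination. Its SPX5551 libraries were above its combination libraries at each time, and its log2 fold change of the combination against DMSO was -0.41 (SE 0.112, adjusted p = 0.0312). This call was kept in 9 of the 15 fits that left out a library or a time. Leaving out the 12 h combination library moved the adjusted p to 0.104.

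**Figure D3:**
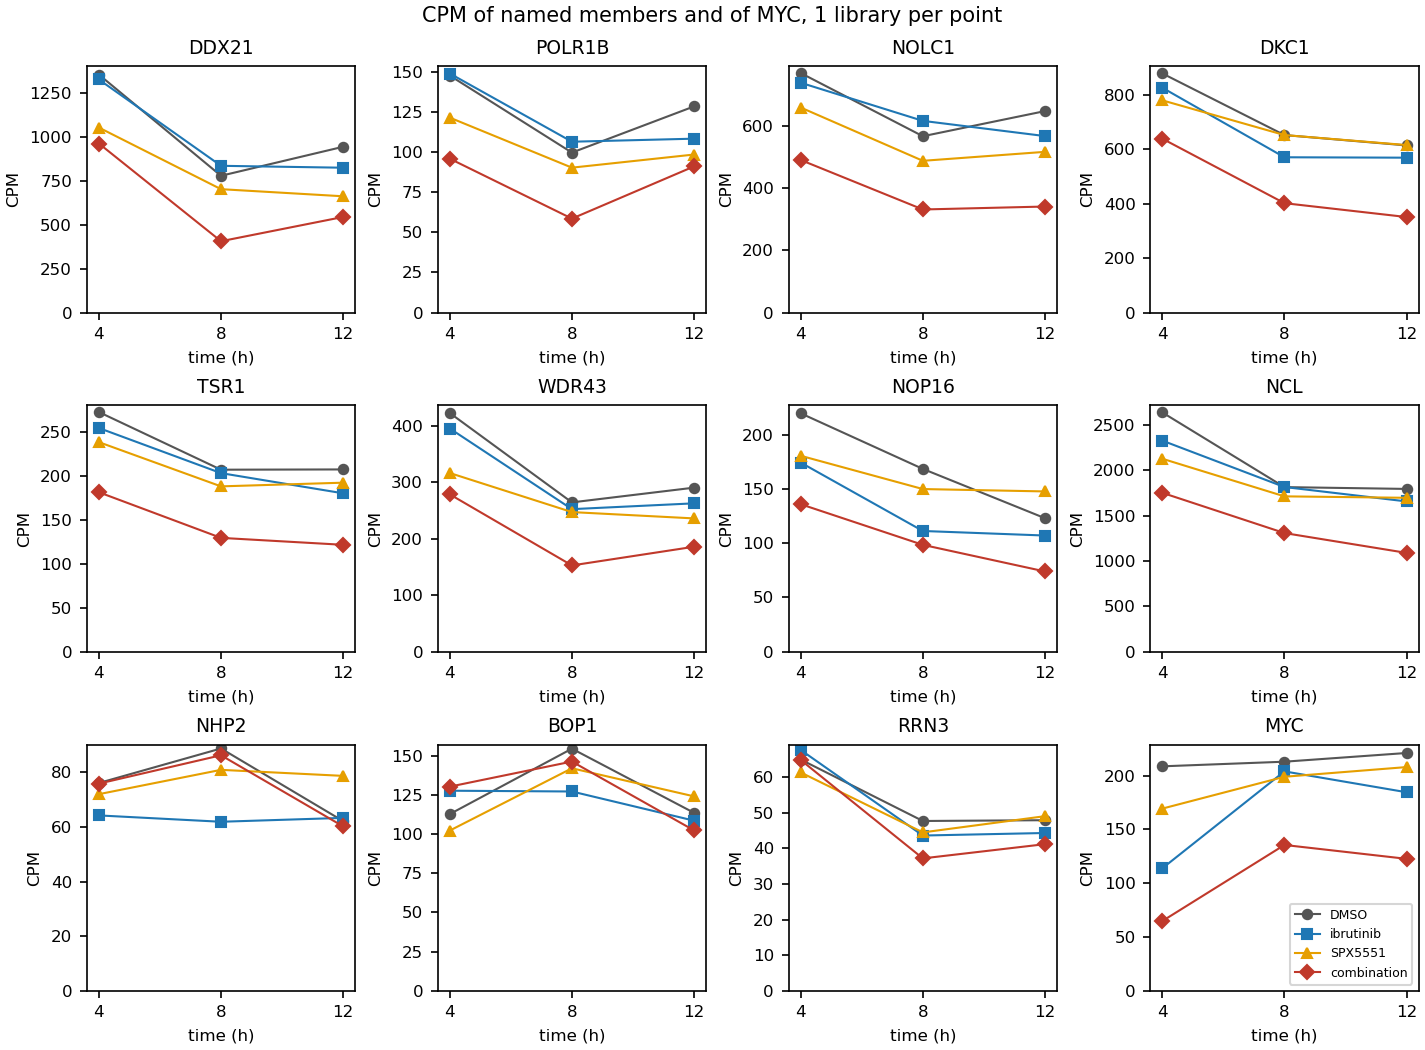
CPM (vertical axis, from 0) of 11 named members and of MYC at 4, 8 and 12 h (horizontal axis), with 1 point per library and 1 colour per treatment. The combination is the lowest point at each time for DDX21, POLR1B, NOLC1, DKC1, TSR1, WDR43, NOP16, NCL and MYC, whereas its points lie close to those of DMSO for NHP2 at each time and for RRN3 at 4 h, and BOP1 is above DMSO at 4 h and below it later.

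Neither agent alone gave a called member. With ibrutinib, 0 of 48 genes were called lower against DMSO by edgeR, against 0.104% of all genes tested. An unadjusted p under 0.05 was found for 12 members and for 1588 of all 14412 genes tested. DESeq2 and limma-trend also called 0 members. The median log2 fold change was -0.10, with 41 of 48 below 0, and the range ran from -0.38 for NOP16 to 0.24 for POLR1A. All 3 ibrutinib libraries lay below all 3 DMSO libraries for 1 gene, PA2G4, against 2.82% of all genes. Without the 12 h libraries 2 members were called lower and 1, POLR1A, higher, while the calls over all 14533 genes then tested were 330 lower (2.27%) and 340 higher. With SPX5551, 0 of 48 genes were called lower and 0% of all genes tested. Here 11 members and 1200 of all 14412 genes tested had an unadjusted p under 0.05. DESeq2 and limma-trend again called 0 members. The median was -0.13, with 41 of 48 below 0 and a range from -0.44 for UTP20 to 0.094 for FBL, and 3 genes (NOP14, MYBBP1A and POLR1A) had libraries that did not overlap, against 3.54% of all genes. Without the 4 h SPX5551 library the median was -0.0755, with 32 of 48 below 0. Without the 12 h SPX5551 library it was -0.175, with 48 of 48 below 0. At 12 h the SPX5551 library was below the DMSO library for 25 of 48 genes, compared with 46 at 4 h and 45 at 8 h.

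The combination was also compared with each agent. Against ibrutinib, 26 of 48 genes were called lower and 0 higher, where 3.39% of all genes tested were called lower, and the median log2 fold change was -0.34. By role these were 12 of 16 of the 40S factors, 5 of 12 of the 60S factors and 3 each of the 8 snoRNP, 6 multifunctional and 6 rRNA transcription genes. NOLC1 stood at -0.74 (SE 0.0893, adjusted p = 0.00163) and DDX21 at -0.69 (SE 0.114, adjusted p = 0.00586). The groups did not overlap for 12 genes, against 5.96% of all genes. The count called lower was 0 without the 4 h libraries and 0 without those of 8 h, where 0.00681% and 0.0346% of all genes were called lower. Without the 12 h libraries 20 members were lower and 1, NHP2, higher, where 6.88% of all genes were called lower. Leaving out 1 library gave 6 without the 4 h and 7 without the 8 h ibrutinib library (0.458% and 0.472% of all genes). It gave 16, 9 and 17 without the 4, 8 and 12 h combination library (1.01%, 0.623% and 2.96% of all genes). Against SPX5551, 25 genes were called lower and 0 higher, where 3.97% of all genes were called lower, and the median was -0.35. These included 6 of 8 snoRNP genes and 5 of 6 multifunctional proteins but 5 of 16 of the 40S factors. TSR1 stood at -0.53 (SE 0.0831, adjusted p = 0.00252) and POLR1C at -0.62 (SE 0.101, adjusted p = 0.00307). The groups did not overlap for 14 genes, against 8.4% of all genes. The count called lower fell to 8, 16 and 13 without the 4, 8 and 12 h libraries (0.572%, 1.92% and 1.85% of all genes). It fell to 15 without the 12 h combination library (1.54% of all genes). These comparisons share the combination libraries.

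Whether the combination departed from the sum of the 2 single effects was tested as an interaction. No member passed (0 of 48, and 0% of all genes tested were called lower), although 45 of 48 estimates were negative, with a median of -0.26, and 15 members had an unadjusted p under 0.05. The smallest adjusted p of a member in edgeR was 0.747, and DESeq2 and limma-trend called 0 members. Over all genes, 845 had an unadjusted p under 0.05. Setting the 6 libraries with ibrutinib, alone or combined, against the 6 without it, 24 of 48 genes were called lower and 0 higher, where 6.58% of all genes were called lower. The members called were 7 of 8 snoRNP genes, 5 of 6 multifunctional proteins, 5 of 12 and 6 of 16 of the 60S and 40S factors, and POLR1C in rRNA transcription. NOP16 had the largest of these differences, -0.53 (SE 0.0832, adjusted p = 0.00206). Without the 8 h libraries the count was 0, without the 12 h libraries it was 7, and without the 12 h combination library it was 14. The shares of all genes called lower were then 0.519%, 0.784% and 2.01%.

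The module also differed by time. Over the 4 treatments, 37 of 48 genes fell from 4 h to 12 h and 0 rose, where 17.5% of all genes tested fell, with a median log2 fold change of -0.44 against 0.0014 over all genes. LYAR had the largest time difference, -0.79 (SE 0.0991, adjusted p = 4.96e-05), and PNO1 followed at -0.72 (SE 0.0962, adjusted p = 7.59e-05). POLR1A, NHP2, BOP1, RRS1, RRP12, HEATR1, UTP20, NOP14, MYBBP1A, PA2G4 and NAT10 did not pass. A test of whether the ibrutinib difference itself changed between 4 and 12 h called 0 members lower (0% of all genes). In it 4 members and 404 of all 14412 genes tested had an unadjusted p under 0.05. DESeq2 and limma-trend made 0 calls of members. Under the combination, the log2 difference of NOLC1 from DMSO was -0.65, -0.77 and -0.93 at 4, 8 and 12 h.

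Single-agent differences varied with transcript length. Across the 48 genes, the log2 fold change with ibrutinib was higher for longer transcripts (longest annotated transcript, Spearman's rho = 0.70, n = 48 genes of the same libraries), and that with SPX5551 was lower for them (rho = -0.62), whereas the combination showed rho = 0.046. Over all 14316 genes with a length, the corresponding values were 0.43, -0.35 and 0.013. By library, the rank correlation of length with level relative to the mean was lowest, -0.40, for SPX5551 at 8 h. It was highest, 0.41, for ibrutinib at 8 h. The DMSO libraries themselves spread widely, with -0.15 at 4 h, -0.30 at 8 h and 0.37 at 12 h. Opposite in sign to DMSO of the same time were ibrutinib at 4 h (0.17) and 8 h, plus SPX5551 at 12 h (-0.38). Ibrutinib at 12 h (0.32) lay near its DMSO library, as did SPX5551 at 4 h (-0.20). Whether these slopes follow the treatment or single libraries was not tested. POLR1A, the longest at 12749 bases, was at 0.24 with ibrutinib and -0.39 with SPX5551, and NHP2, the shortest at 865 bases, was at -0.25 and 0.042. After a trend on length and GC content was removed from each library, the combination had 42 members lower than DMSO, ibrutinib 0 and SPX5551 0. The share of all genes lower with the combination was 9.54% in place of 5.41%. Members lower were then 37 for the combination against ibrutinib and 35 against SPX5551 (5.53% and 7.79% of all genes). They were 30 for the libraries with ibrutinib against those without it (8.47% of all genes). When ibrutinib at 8 h and SPX5551 at 12 h were both left out, an alternative chosen with the data in view, 43 members were lower with the combination, where 10.5% of all genes were.

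**Figure D4:**
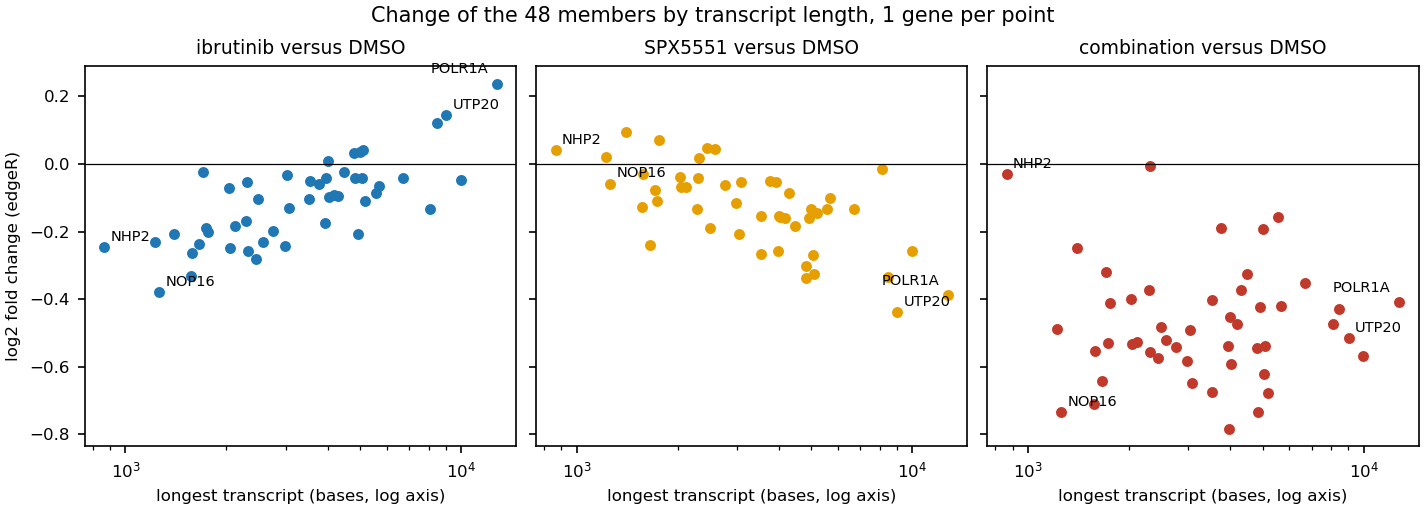
Log2 fold change against DMSO (vertical axis) of each of the 48 genes against the length of its longest transcript in bases (horizontal log axis), with 1 panel per treatment. Points climb to the right for ibrutinib (rho = 0.70), descend for SPX5551 (rho = -0.62) and show no slope for the combination (rho = 0.046).

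Other genes of the pathway were counted from lists of further factors. Of 108 further ribosome biogenesis genes, 43 were lower with the combination than in DMSO and 0 were higher, with a median of -0.27, where 5.41% of all genes were lower. These were 16 of 40 further 40S factors, 23 of 47 further 60S factors, 3 of 10 further polymerase I genes and 1 of 11 further snoRNP genes (9.09%), the last a share near that of all genes. POLR1G (log2 fold change -0.72, SE 0.102) and POLR1E (-0.51, SE 0.0872), both polymerase I subunits, had the smallest p among the polymerase I genes. NOL6 (-0.54) and PWP2 (-0.62) did so among the 40S factors, and NLE1 (-0.57) and DDX31 (-0.51) among the 60S factors. ZNHIT6 (-0.30), a snoRNP assembly factor, was the snoRNP gene that passed, and SNU13 followed at -0.34 without passing (adjusted p = 0.0621 in edgeR). Of 14 snoRNA host transcripts, 3 were lower with the combination, among them SNHG16 (-0.53) and SNHG15 (-0.50). With the 6 libraries with ibrutinib set against the 6 without it, 11 of the 14 were lower, where 6.58% of all genes were. Side by side against DMSO, the host transcripts had a median of -0.17 for the combination, -0.29 for ibrutinib alone and 0.16 for SPX5551 alone.

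MYC, the transcription factor whose E-box was searched above, is known to drive many of these genes. Its mRNA was at 208.7, 213 and 221 CPM in DMSO at 4, 8 and 12 h, at 114, 204 and 185 with ibrutinib, at 169, 199 and 208 with SPX5551, and at 64.9, 136 and 123 with the combination. The combination was lowest at each time, and the 4 h ibrutinib library was lower than all 6 DMSO and SPX5551 libraries. The log2 fold change of the combination against DMSO was -1.06 (SE 0.151, adjusted p = 0.000741), and that of ibrutinib alone did not pass (-0.41, SE 0.150, adjusted p = 0.452, edgeR). Of the 10 genes listed for the MYC network, MYC was the 1 called lower and 2 were higher. These 2 were MXD3 (1.44, SE 0.200) and MXD4 (1.17, SE 0.175), MAX partners that oppose MYC at E-boxes. Both were scarce beside MYC, with MXD3 ranging from 1.44 to 7.52 CPM and MXD4 from 2.99 to 16.4 CPM by library. MXD1, MXI1, MNT and MGA, also listed for this network, did not pass. MAX itself was at -0.016 and did not pass. Averaged over the 4 treatments, MYC rose from 4 to 12 h (0.48, SE 0.130, adjusted p = 0.00996), and 37 of the 48 members fell. By treatment, MYC went from 208.7 to 221 CPM in DMSO and from 169 to 208 CPM with SPX5551. It went from 114 to 185 CPM with ibrutinib and from 64.9 to 123 CPM with the combination. The part of MYC in the members' levels was not tested.

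Reads of some members cannot be told apart from those of other genes, since no source says whether strand was used in counting. Another gene overlaps 25 of the 48 on the opposite strand, and 8 overlap a gene other than a snoRNA on their own strand. PPAN shares its sequence with the read-through gene PPAN-P2RY11, so its counts are uncertain. NPM1 has 45 copies named after it in GENCODE 29 and RRN3 has 3, and how reads shared with such copies were counted is not given. Of the 48 genes, 8 carry snoRNAs in their introns, 27 in all, among them GNL3 with 6 and NOP56 with 5.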

How the data were processed

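The members, role groups and comparison lists were chosen with earlier results of these data known, so no p-value was adjusted over a list. The authors deposited whole-number counts per Ensembl gene and a table of log2 CPM for 14767 genes. Per the submitters' processing notes BWA and hg38 were used, and per the labels' protocols the kit was directional. For the counting tool, annotation, strand and normalization, nothing is stated in the sources used here. The deposited log2 CPM correlated with values recomputed from the counts at 0.9999 or more in each library.

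Counts were fitted with edgeR 4.0.16 in R 4.3.3: genes with low counts were removed by filterByExpr, libraries were scaled by TMM, and treatment and time were terms of a quasi-likelihood fit over all 12 libraries. The biological coefficient of variation was 0.101. Lengths came from GENCODE 29, promoters from RefSeq (GRCh38.p14). Symbols came from a separate list of gene names by Ensembl ID, and from GENCODE 29 where that list had none. Time, the same in each group, is the term that pairs libraries. Of the 9 comparisons made, alternatives were other scalings, no filter, no time term, removal of a length and GC trend, leaving out libraries, DESeq2 1.42.0 and limma 3.58.1 on the deposited log2 values. Only the comparison of the combination with DMSO was run on simulated counts, which held no effect of time or transcript length. In each role group the members given by library are those with the 2 smallest and the 1 largest p for the combination against DMSO. Counts carry no molecular identifiers, so they hold more than counting error.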

Additional observations from a re-analysis of the deposited data

How the results depend on the processing

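Limits come mainly from having 1 library per treatment and time. Leaving out a library or a time gave 21 to 42 members lower with the combination than in DMSO, 0 to 2 with ibrutinib, 0 to 0 with SPX5551, 0 to 31 for the combination against ibrutinib, 8 to 31 against SPX5551, 0 to 27 with ibrutinib exposure, 32 to 38 from 4 to 12 h, and 0 for the interaction and the change by time. Without the time term, the fit with no replicate block, the count was 0 for the combination against DMSO, ibrutinib and SPX5551 and 0 for ibrutinib exposure. Of all genes, 0.153%, 0%, 0.0347% and 0.187% were then called lower. Without a filter on low counts 1 member was lower with ibrutinib and 2 with SPX5551 (0.348% and 0.308% of all genes). With only the 6 libraries of both groups, 17 were lower against ibrutinib and 15 against SPX5551 (2.58% and 1.76% of all genes). The module difference for SPX5551 was -0.25 as a median over members, and that of the combination against ibrutinib was -0.32 by total count. Before the start alone, 6 members held CACGTG.

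Columns read by the free-text field gave 0 members lower for the combination against DMSO and ibrutinib, 0 for ibrutinib exposure, 5 against SPX5551 and 23 for the interaction. Higher were 25 members for the combination, 40 for ibrutinib alone and 26 for SPX5551 alone against DMSO, 8 for ibrutinib exposure and 1, POLR1C, for the combination against SPX5551. Log2 fold changes of the combination against DMSO were then 0.53 for NOLC1, 0.60 for DKC1, 0.0718 for NHP2, 0.68 for NOP16, 0.49 for NIP7, 0.53 for TSR1, 0.41 for WDR43, 0.14 for RRP12, 0.44 for NCL, 0.24 for MYBBP1A, 0.48 for NPM1, 0.39 for DDX21, 0.35 for POLR1B, 0.14 for RRN3 and 0.88 for MYC. The cause was not tested. By total count NHP2 was at 0.0502 and BOP1 at 0.0745, and without a library or time they ran from -0.14 to 0.0425 and from -0.11 to 0.0636.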
